A study of Homo sapiens with 9 samples.

Results

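The genes described here are 9 genes of fatty acid oxidation, chosen by name from the 58735 genes of the count table: CPT1A, CPT2, ACADVL, ACADM, HADHA, HADHB, ECHS1, ACAA2 and PPARA. Each name matched 1 row, all 9 rows passed the filter on low counts, and each gene was read in all 9 libraries. The libraries are poly-A RNA-seq of OVCAR4, an established cell line of high-grade serous ovarian cancer, made to ask what changes when MPZL3, a membrane protein with an immunoglobulin-like domain, is depleted. Lentiviral short hairpin RNAs (shRNAs) lowered MPZL3. One group of 3 libraries carried a scramble hairpin (scr control, labelled as wild type), and the others carried shMPZL3 #1 (3 libraries) or shMPZL3 #2 (3 libraries), so all 9 were transduced and kept under puromycin for 3 days. Each library comes from a selected population of 1 cell line, and the replicates are described as biological. The p-values thus measure the spread between such cultures of OVCAR4. Where both shRNAs are grouped, that spread also takes in the difference between the shRNAs.

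Mitochondrial beta-oxidation breaks fatty acids down to acetyl-CoA. Long-chain acyl groups enter the matrix through the carnitine shuttle, whose outer-membrane enzyme, carnitine palmitoyltransferase 1 (CPT1), is inhibited by malonyl-CoA and is commonly regarded as the controlling step. In the matrix a repeated cycle of dehydrogenation, hydration, dehydrogenation and thiolysis shortens the chain, and PPARA is a fatty acid-sensing nuclear receptor that activates many genes of this pathway in liver and other oxidative tissues. Ovarian cancer cells that spread to the fat-rich omentum are known to take up and oxidize fatty acids.

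The 3 promoter stretches printed here are those of the member that fell and of the pair of genes encoding the subunits of one enzyme, which start next to each other. They are the 250 bases before the RefSeq start site on GRCh38.p14, read 5′ to 3′ on the strand of the gene. The windows of HADHA (chr2:26244633-26244882, minus strand) and HADHB (chr2:26244689-26244938, plus strand), which are transcribed away from each other, share 194 bases, given in capitals as reverse complements of each other. The window of CPT1A (chr11:68844278-68844527, minus strand) held none of the 6 motifs searched and is printed without capitals. As annotated for the counts, the genes start further upstream, CPT1A at 68844410, HADHA at 26244726 and HADHB at 26243170. The printed stretches thus lie partly or wholly inside the counted genes, and other start sites of these genes were not searched.
HADHA: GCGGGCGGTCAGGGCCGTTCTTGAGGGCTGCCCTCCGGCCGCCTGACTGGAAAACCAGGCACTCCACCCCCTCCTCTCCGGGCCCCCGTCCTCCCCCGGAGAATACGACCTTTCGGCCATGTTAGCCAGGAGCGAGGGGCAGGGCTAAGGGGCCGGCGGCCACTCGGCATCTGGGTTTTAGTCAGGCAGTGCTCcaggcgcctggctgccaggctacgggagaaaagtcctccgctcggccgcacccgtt
HADHB: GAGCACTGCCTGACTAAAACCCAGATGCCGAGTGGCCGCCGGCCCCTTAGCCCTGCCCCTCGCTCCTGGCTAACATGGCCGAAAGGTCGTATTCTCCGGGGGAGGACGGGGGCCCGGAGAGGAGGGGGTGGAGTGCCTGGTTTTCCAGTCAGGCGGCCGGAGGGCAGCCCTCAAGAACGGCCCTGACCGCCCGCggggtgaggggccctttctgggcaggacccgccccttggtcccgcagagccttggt
CPT1A: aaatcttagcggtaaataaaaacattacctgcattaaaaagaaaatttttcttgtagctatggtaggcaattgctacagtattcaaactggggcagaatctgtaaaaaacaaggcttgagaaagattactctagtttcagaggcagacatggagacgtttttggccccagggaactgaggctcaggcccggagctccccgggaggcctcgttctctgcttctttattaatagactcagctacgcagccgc
The start sites of HADHA and HADHB lie 307 bases apart. Windows of 300 bases, with 250 before and 50 from the start site on, were found in the RefSeq table for all 9 genes (11 windows, since ACADVL and PPARA have 2 each), and 6 motifs were searched in them on both strands. The GC box GGGCGG was in 8 of the 11 windows, from 7 of the 9 genes, against 45.0% of the 35116 windows of all genes. CPT1A and ACAA2 were the members without it. The only match in the HADHA window lies in the bases shared with HADHB, and the PPARA windows overlap, so these windows are not independent. The NRF1 motif, GCGCA followed directly by TGCGC (1.24% of all windows) and the CCAAT box CCAAT (34.6%) were each in a PPARA window and in no other member's window. A PPAR response element, written as a pair of AGGTCA copies with any 1 base between them, was in 0.0228% of all windows, the estrogen-related receptor motif TCAAGGTCA in 0.353%, and the half-site AGGTCA, which lies inside both, in 13.8%. None of these was in a member's window, which says only that these letters are not in these windows. The CPT1A window was 50.0% G or C and an ACADVL window 52.7%, against a median of 58.7% over all windows. The other member windows held 65.0% to 86.7%.

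MPZL3 (ENSG00000160588) stood at 536, 611 and 587 normalized counts in the scr control, 119, 143 and 123 with shMPZL3 #1 and 284, 380.4 and 271 with shMPZL3 #2. Normalized counts are raw counts brought to a common library size with TMM factors. The level was 22.2% of the control mean with shMPZL3 #1 and 54.0% with shMPZL3 #2, and the log2 fold change between the shRNAs was 1.28 (edgeR adjusted p = 5.72e-05). Libraries held 15040102 to 27835841 counts, and mitochondrially encoded genes took 7.37% ± 0.34 of them in scr (SD, n = 3), 8.31% ± 0.486 with #1 and 7.56% ± 0.21 with #2. Of 8 epithelial markers of ovarian carcinoma, 7 passed the filter. The summed level of all 8 was 101464 to 106704 normalized counts in the control, 106422 to 128273 with shMPZL3 #1 and 104026 to 129086 with shMPZL3 #2. It was mostly KRT7 and KRT8 (means of 39249 and 30178 in the control). With shMPZL3 #1, edgeR called 3 of these markers higher and 1 lower (16.8% and 15.3% of all genes tested), and 0 in the grouped comparison. The mean of MUC16 was 7703 in the control, 5054 with shMPZL3 #1 and 6516 with shMPZL3 #2. Of the 7 markers tested, 3 had every knockdown library above the control and 0 had every one below. They were KRT7, CDH1 and PAX8. The mean of KRT7 was 39249 in the control, 50171 with shMPZL3 #1 and 48766 with shMPZL3 #2. In the same order, the means were 5252, 6976 and 5985 for CDH1 and 4628, 5644 and 5312 for PAX8. WT1 had at most 13 counts in any library. Adipocyte markers were near 0, with ADIPOQ at 0 in every library and at most 1 count of LEP, 5 of PLIN1 and 2 of CIDEC, and a list sum of 52.7 to 113 normalized counts that is mostly LIPE. The 3 endothelial markers summed to 166 to 203 in the control, 150.0 to 181 with shMPZL3 #1 and 256 to 330.0 with shMPZL3 #2, and 1 of them, CDH5, was called higher with shMPZL3 #2. Their part in the results below was not tested.

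With both shRNAs grouped, CPT1A fell by 24.0%, while no member rose. HADHA, HADHB, CPT2 and ACADVL had fold changes between 1.01 and 1.04, ACADM stood at 0.92 and ECHS1 at 0.94 of the control, and none of the 6 was called. ACAA2, which encodes the thiolase of the last step, stood at 0.80 of its control level and below the control in all 6 knockdown libraries but did not pass the test. PPARA stood at 1.18 times its control level and was not called. Outside the members, the beta-oxidation enzyme gene HSD17B10 rose to 3.00-fold of the control. TXNIP, listed here as a PPARA target and not as an oxidation gene, rose to 3.67-fold.

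The grouped comparison set the 6 knockdown libraries against the 3 scr libraries with the edgeR quasi-likelihood test, and a gene was called at a Benjamini-Hochberg adjusted p under 0.05 over all 16928 genes tested. It called 1 of the 9 members, CPT1A, lower and 0 higher, against 15.8% of all genes tested called in either direction (9.36% higher and 6.4% lower). At an unadjusted p under 0.05 the same test gave 2 members lower, CPT1A and ACAA2, and 0 higher, and DESeq2 at its adjusted p called the same 2 lower and 0 higher. The median log2 fold change was 0.01 over the members and 0.02 over all genes tested. Of the 9 members, 2 had all 6 knockdown libraries below the 3 controls, a separation found for 11.0% of all genes tested, and 0 had all 6 above, which held for 11.8%. RNA from a whole culture cannot tell fewer cells of a kind from less RNA per cell.

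CPT1A (ENSG00000110090, chromosome 11 from 68754620 to 68844410, minus strand of GRCh38) encodes the liver-type CPT1, which joins long-chain acyl groups to carnitine at the outer mitochondrial membrane. It measured 2931, 2968 and 2898 normalized counts in the control, 2254, 1856 and 2091 with shMPZL3 #1 and 2599, 2204 and 2368 with shMPZL3 #2. The controls were close to each other and every knockdown library lay below them, with the shMPZL3 #1 libraries lowest on average. The grouped log2 fold change was -0.40 (SE 0.104, 95% interval -0.62 to -0.17, edgeR adjusted p = 0.0231), and an exact permutation test, two-sided, on log2 CPM gave p = 0.0119, the smallest that 6 libraries against 3 allow. The permutation p is not adjusted for the number of genes, and 11.0% of all genes tested had the same separation below the control. With shMPZL3 #1 alone CPT1A fell by 29.5% (log2 fold change -0.50, SE 0.0999, edgeR adjusted p = 0.00108). With shMPZL3 #2 alone the log2 fold change was -0.30 (SE 0.0996, edgeR adjusted p = 0.0549), short of the threshold, with an interval of -0.51 to -0.08. CPT1A was called there under 6 of 17 alternatives, among them a replicate block (edgeR adjusted p = 0.0168). The difference between the shRNAs was 0.21 (95% interval -0.00 to 0.42, edgeR adjusted p = 0.172). The grouped call was lost when any 1 of the 3 scr libraries was left out, with adjusted p between 0.072 and 0.10, while the value moved between -0.41 and -0.39.

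CPT2 (ENSG00000157184, chromosome 1 from 53196429 to 53214197, plus strand) encodes the inner-membrane enzyme that returns the acyl group to CoA. It measured 460.1, 384 and 381 normalized counts in the control, 452, 384 and 373 with shMPZL3 #1 and 427, 437 and 420.1 with shMPZL3 #2. The 3 groups overlapped, and the interval of the grouped log2 fold change, -0.22 to 0.28 around 0.03, leaves room for a difference in either direction (adjusted p = 0.905). CPT2 shares 99 bases with C1orf123 of the opposite strand. C1orf123 totalled 3705 counts and CPT2 3716, and without strand information reads from the overlap cannot be told apart.

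**Figure D1:**
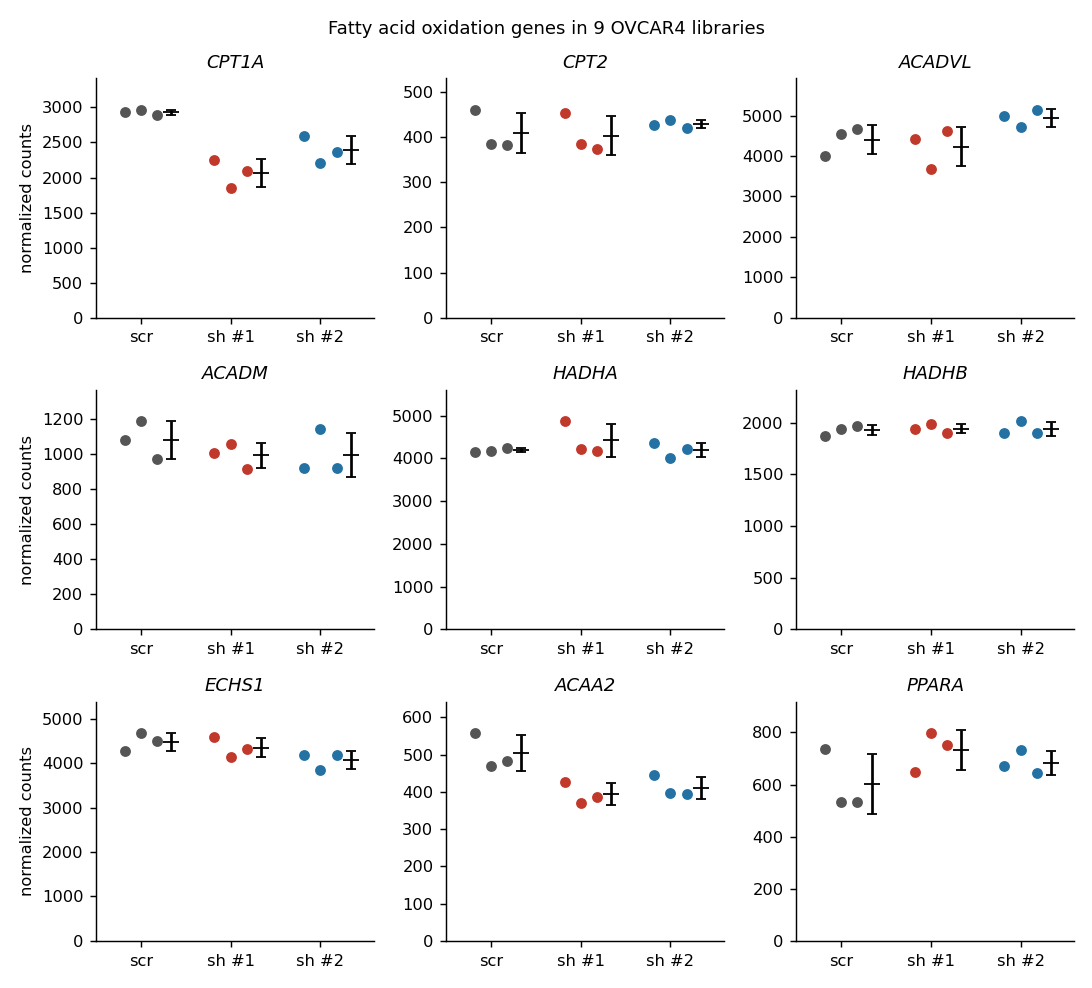
Normalized counts of the 9 genes in each library, with a panel per gene, the vertical axis from 0, dots for the 3 libraries of each group and a black bar for the mean ± SD. The CPT1A dots of both shRNAs lie below 2931, 2968 and 2898 in the control, as do those of ACAA2 below 558, 469 and 484, while HADHB stays between 1869 and 2013 in all 9 libraries.

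ACADVL (ENSG00000072778, chromosome 17 from 7217125 to 7225273, plus strand) and ACADM (ENSG00000117054, chromosome 1 from 75724347 to 75787575, plus strand) encode the very long-chain and medium-chain acyl-CoA dehydrogenases of the first oxidation. ACADVL measured 4006, 4557 and 4661 normalized counts in the control, 4414, 3685 and 4608 with shMPZL3 #1 and 4983, 4716 and 5148 with shMPZL3 #2. The shMPZL3 #2 libraries were the 3 highest of the 9, and the other groups overlapped. The log2 fold change of ACADVL was 0.17 with shMPZL3 #2 against the control (95% interval -0.05 to 0.39, edgeR adjusted p = 0.305) and 0.22 between the shRNAs (0.01 to 0.44, adjusted p = 0.16), neither past the threshold. ACADM measured 1077, 1185 and 969 normalized counts in the control, 1006, 1054 and 914 with shMPZL3 #1 and 916, 1138 and 919.9 with shMPZL3 #2. Its groups overlapped, at a grouped log2 fold change of -0.12 (-0.35 to 0.11, adjusted p = 0.463). ACADM shares 1379 bases on the same strand with RABGGTB (10747 counts in all, ACADM 9148), so its counts are uncertain where reads fall in the shared part. ACADVL shares 2717 bases with DLG4 of the opposite strand (595 counts in all, ACADVL 41057).

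HADHA (ENSG00000084754, chromosome 2 from 26190635 to 26244726, minus strand) and HADHB (ENSG00000138029, chromosome 2 from 26243170 to 26290468, plus strand) encode the alpha and beta subunits of the mitochondrial trifunctional protein, which carries out the last steps of the cycle on long chains. HADHA measured 4149, 4174 and 4243 normalized counts in the control, 4869.9, 4227 and 4184 with shMPZL3 #1 and 4351, 4012 and 4216 with shMPZL3 #2. HADHB measured 1869, 1939 and 1969 in the control, 1935, 1989 and 1902 with shMPZL3 #1 and 1902, 2013 and 1896 with shMPZL3 #2. HADHB stayed between 1869 and 2013 in all 9 libraries, and 1 shMPZL3 #1 library stood above the rest in HADHA. The grouped log2 fold change was 0.04 for HADHA (95% interval -0.15 to 0.23, adjusted p = 0.792) and 0.01 for HADHB (-0.16 to 0.18, adjusted p = 0.949). The ratio of HADHA to HADHB counts was 2.18 ± 0.0378 in scr (SD, n = 3 in each group), 2.28 ± 0.208 with #1 and 2.17 ± 0.155 with #2, with overlapping ranges of 2.15 to 2.22, 2.12 to 2.52 and 1.99 to 2.29. These genes overlap by 1557 bases on opposite strands, so reads there cannot be assigned without strand, and the pseudogene copies HADHAP1 and HADHAP2 had 10 and 23 counts over the 9 libraries.

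ECHS1 (ENSG00000127884, chromosome 10 from 133362480 to 133373689, minus strand) encodes the short-chain enoyl-CoA hydratase of the second step. It measured 4269.5, 4686 and 4490.2 normalized counts in the control, 4584, 4148 and 4329 with shMPZL3 #1 and 4184, 3841 and 4185 with shMPZL3 #2. Each shMPZL3 #2 library lay below each control library, and the shMPZL3 #1 libraries overlapped both. The log2 fold change with shMPZL3 #2 was -0.14 (95% interval -0.33 to 0.05, edgeR adjusted p = 0.333).

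ACAA2 (ENSG00000167315, chromosome 18 from 49782167 to 49813960, minus strand) encodes mitochondrial 3-ketoacyl-CoA thiolase, which releases acetyl-CoA at the end of a cycle. It measured 558, 469 and 484 normalized counts in the control, 427, 369.6 and 387 with shMPZL3 #1 and 444, 396 and 393 with shMPZL3 #2. All 6 knockdown libraries lay below the lowest control. The grouped log2 fold change was -0.32 (SE 0.11, 95% interval -0.56 to -0.09, edgeR adjusted p = 0.0615), and the two-sided exact permutation p was 0.0119, the smallest possible. That permutation p is not adjusted for the number of genes, and 11.0% of all genes tested had all 6 knockdown libraries below the control. With shMPZL3 #1 alone ACAA2 fell by 21.6% (log2 fold change -0.35, edgeR adjusted p = 0.042), a call that held under 6 of 17 alternatives and was lost without scr replicate 1 (adjusted p = 0.179), 2 (0.0616) or 3 (0.0708) and without shMPZL3 #1 replicate 2 (0.108) or 3 (0.103). With shMPZL3 #2 the log2 fold change was -0.29 (adjusted p = 0.127). The difference between the shRNAs was 0.06 (95% interval -0.21 to 0.32), which does not separate them. The grouped value passed under 2 of 17 alternatives, DESeq2 (adjusted p = 0.0389) and the 3-group fit that averaged the shRNAs (0.0345).

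PPARA (ENSG00000186951, chromosome 22 from 46150521 to 46243756, plus strand) measured 735, 534 and 535 normalized counts in the control, 649, 799 and 751 with shMPZL3 #1 and 671, 733 and 643 with shMPZL3 #2. The first control library reached into the range of the knockdown libraries and the other controls lay below all of them. The grouped log2 fold change was 0.24 (95% interval -0.04 to 0.51, edgeR adjusted p = 0.223, two-sided exact permutation p = 0.0952). Without scr replicate 1 the grouped value was 0.40 (adjusted p = 0.102), and the value for shMPZL3 #1 went from 0.29 (adjusted p = 0.116) to 0.45 (adjusted p = 0.0233), so PPARA was called with shMPZL3 #1 when that control was left out and not with it.

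**Figure D2:**
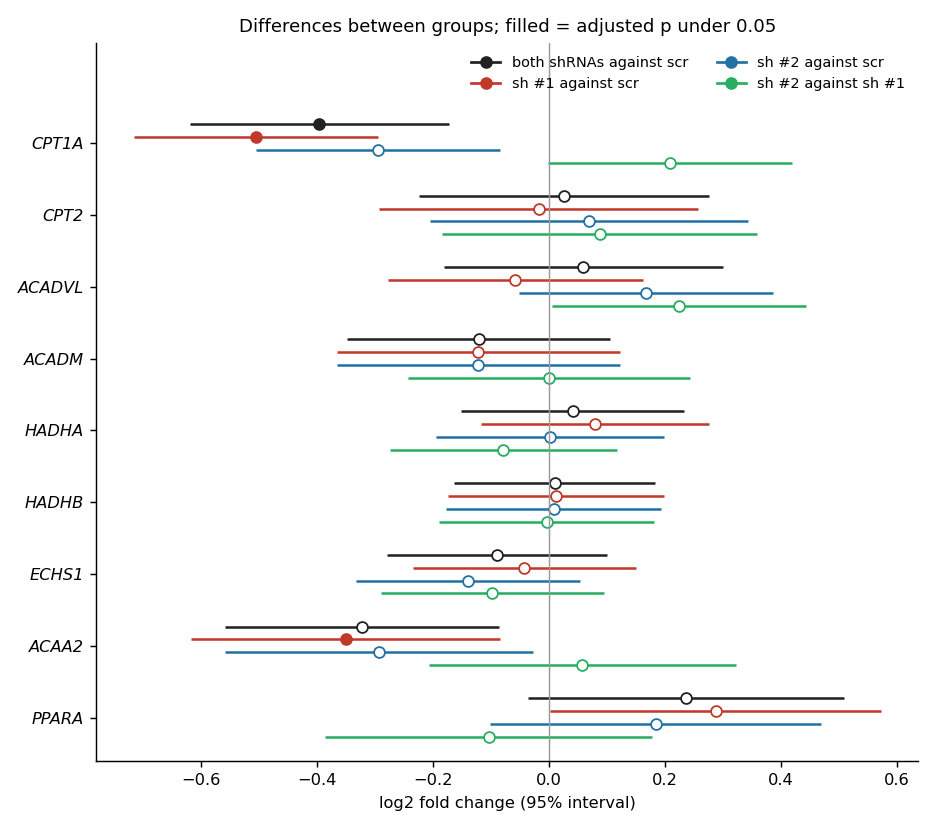
Log2 fold change (horizontal axis) of the 9 genes with 95% intervals from the edgeR fits, for both shRNAs against scr in black, shMPZL3 #1 in red, shMPZL3 #2 in blue and shMPZL3 #2 against shMPZL3 #1 in green. Filled dots passed an adjusted p of 0.05, which only CPT1A (grouped and shMPZL3 #1) and ACAA2 (shMPZL3 #1) did.

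The shRNAs were then compared with the same 3 control libraries one at a time, so their values are not independent of each other. An exact permutation test of 3 libraries against 3 cannot go below p = 0.1, so only the model across all genes is given for them. With shMPZL3 #1, 2 of the 9 members, CPT1A and ACAA2, were called lower and 0 higher, against 32.0% of all genes tested called (16.8% higher and 15.3% lower). At an unadjusted p under 0.05 the edgeR test gave 1 member higher, PPARA, and DESeq2 called 0 higher and 2 lower. With shMPZL3 #2, 0 of the 9 members passed edgeR in either direction, against 15.2% of all genes (9.36% higher and 5.8% lower). The unadjusted p was under 0.05 for 2 members, CPT1A and ACAA2, both lower, and DESeq2 called 1, CPT1A. Between the shRNAs, 0 members passed edgeR, 1 had an unadjusted p under 0.05 (ACADVL, higher with shMPZL3 #2) and DESeq2 called 0, against 15.1% of all genes tested. The libraries of shMPZL3 #1 lay all below the control for 2 members and all above for 0 (22.8% and 23.9% of all genes), and those of shMPZL3 #2 all below for 3 and all above for 1 (17.6% and 18.7%). In size, the log2 difference from the control was larger with shMPZL3 #1 for CPT1A, ACAA2, PPARA and HADHA. It was larger with shMPZL3 #2 for CPT2, ACADVL and ECHS1, and about equal for ACADM and HADHB. The difference between the shRNAs did not pass for any member.

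Levels of different genes were set side by side as CPM, counts scaled to library size, per kb of exons. The length joins all annotated exons of a gene, from 1617 bases for ECHS1 with 1 transcript to 13219 for PPARA with 12. The order thus depends on the annotation. Without the length, the control means of ECHS1, ACADVL and HADHA were 4482, 4408 and 4188 normalized counts. In the control, ECHS1 was the highest member at 135 ± 6.27, followed by HADHA at 46.5 ± 0.542 and ACADVL at 44.1 ± 3.52. HADHB at 21.9 ± 0.58 and CPT1A at 21.7 ± 0.26 came next, then ACADM at 11 ± 1.1, ACAA2 at 4.84 ± 0.461, PPARA at 2.22 ± 0.427 and CPT2 at 1.9 ± 0.209 (SD, n = 3 each). Neighbours whose control ranges overlapped were HADHA and ACADVL, HADHB and CPT1A, and PPARA and CPT2. Read within each control library, HADHA exceeded ACADVL and PPARA exceeded CPT2 every time, while HADHB and CPT1A changed order. CPT1A was level with HADHB in the control and below it in each knockdown group, at 15.3 ± 1.48 with shMPZL3 #1 and 17.7 ± 1.47 with shMPZL3 #2 against 22.1 ± 0.501 and 22 ± 0.745 for HADHB. With shMPZL3 #2 the mean of ACADVL, 49.5 ± 2.18, was above that of HADHA, 46.6 ± 1.9. Their ranges overlapped, but ACADVL was the higher within each of these libraries.

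**Figure D3:**
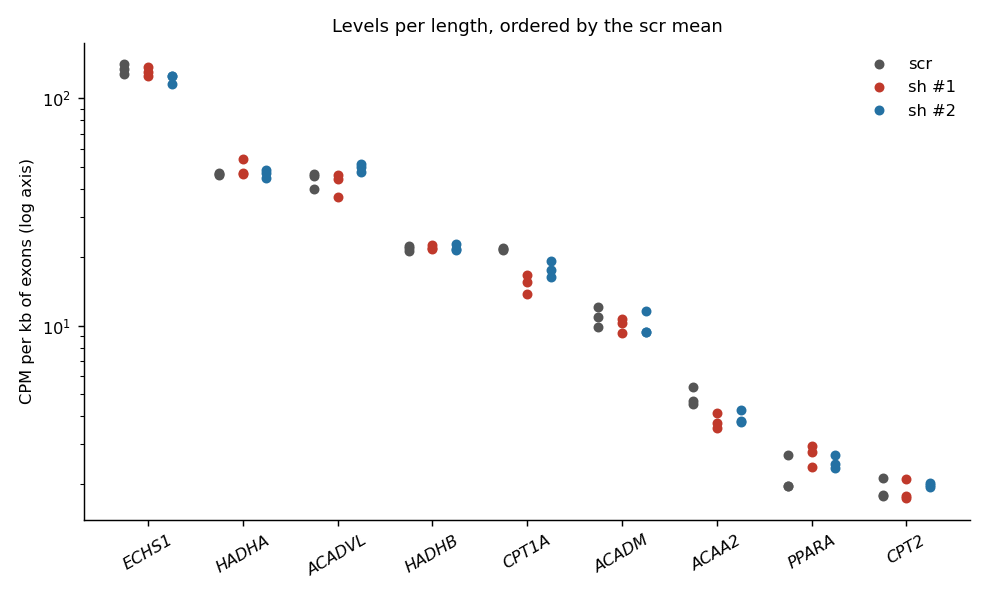
Level of each gene in CPM per kb of exons on a log axis, in the order of the control means, with a dot per library and the groups side by side. ECHS1 is highest in every group, and CPT1A drops from the level of HADHB near 21.7 to 15.3 with shMPZL3 #1.

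CPT1A and ACAA2 were also the pair of members with the most similar profile over the 9 libraries, at a root mean square difference of z-scored log2 CPM of 0.44, against 0.928 for the next pair, HADHA and ECHS1. The 5 protein-coding genes most like CPT1A, among 9807 whose mean log2 CPM was 3 or more, were SAPCD2 (0.114), COPS6 (0.164), KDM1A (0.201), RECQL4 (0.205) and RPL3 (0.208). This likeness is a description over 9 libraries that share 3 groups, so a gene with the same order of group means scores as similar.

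The rest of the pathway and genes around it, such as PPARA targets, were read from 7 lists of 86 genes in all, of which 71 were tested. The grouped comparison called 10 higher and 4 lower, which is 19.7% of those tested against 15.8% of all genes. VNN1, 1 of the 10, reached 10 counts in no control library and so passed the filter through the knockdown libraries alone. Without it, 9 were higher and 4 lower of 70 (18.6%). The count was 4 without scr replicate 1, 7 without scr replicate 2 and 7 without scr replicate 3. With shMPZL3 #1 it was 15 higher and 10 lower (35.2% against 32.0%), with shMPZL3 #2 it was 9 higher and 5 lower (19.7% against 15.2%), and between the shRNAs 5 were higher and 9 lower with shMPZL3 #2 (19.7% against 15.1%). Leaving out scr replicate 1, 2 or 3 lost the grouped calls of ACACA, ECI2, NCOA1, PPARD and MED1 each time (edgeR adjusted p between 0.0614 and 0.164). The call of ACSL5 was lost without scr replicate 1 (adjusted p = 0.142) or 2 (0.0645), that of SLC22A5 without 1 (0.0826) or 3 (0.0572), and that of PLIN2 (0.0666) without 1. HSD17B10, TXNIP, PPARGC1A and ACOT2 were called in the grouped comparison under all 17 alternatives tried, against 9 for NCOA1 and 8 for PPARD. DESeq2 called the same numbers in each direction as edgeR in 6 of the 7 lists and 2 higher and 1 lower in the list of the carnitine shuttle.

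Of 11 uptake and activation genes tested, 1 rose and 0 fell (unadjusted p under 0.05 for 2, median log2 fold change 0.01). That is 9.09% called, against 15.8% of all genes tested. It was ACSL5, a long-chain acyl-CoA synthetase, with 82.4, 133 and 140.2 normalized counts in the control, 155, 275 and 262 with shMPZL3 #1 and 185, 226 and 187 with shMPZL3 #2 (log2 fold change 0.85, SE 0.226, edgeR adjusted p = 0.0239). Every knockdown library exceeded the control libraries. Its 1683 counts are uncertain, because ZDHHC6 on the opposite strand, with 6885 counts, overlaps it. CD36, SLC27A2, FABP4 and ACSL6 were too low to test, with at most 15 counts in a library.

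Of 7 genes of the carnitine shuttle and of malonyl-CoA tested beside CPT1A and CPT2, 1 rose and 1 fell (28.6%, against 15.8% of all genes). SLC22A5, the plasma membrane carnitine transporter, measured 477, 559 and 489 normalized counts in the control, 829, 818 and 931 with shMPZL3 #1 and 693, 637 and 697 with shMPZL3 #2, which put all 6 knockdown libraries above the control (log2 fold change 0.59, adjusted p = 0.0108). ACACA, an acetyl-CoA carboxylase that makes malonyl-CoA for fatty acid synthesis, measured 4163, 4437 and 4632 in the control, 3434, 2965 and 2770.2 with shMPZL3 #1 and 3647, 3591 and 3398 with shMPZL3 #2. It fell by 0.42 on the log2 scale (SE 0.105, adjusted p = 0.0187) and was below the control in 6 of 6 libraries. ACACB, the other acetyl-CoA carboxylase gene of the list, was chosen after its values were seen. It was not called, with means of 213 in the control, 217 with shMPZL3 #1 and 206 with shMPZL3 #2. Malonyl-CoA was not measured. SLC22A5 had 6261 counts and MIR3936HG on the opposite strand, which overlaps it, 1722. The other CPT1 genes, chosen after their values were seen, were low and not called, with CPT1B at 1.4 to 13.2 normalized counts and CPT1C at 46.2 to 59.1 in the control.

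Of 14 other mitochondrial beta-oxidation enzymes tested, 1 rose and 1 fell (14.3%, against 15.8% of all genes tested). HSD17B10, a matrix dehydrogenase of short-chain and branched acyl-CoAs that is also a subunit of mitochondrial RNase P, was the most changed of them, with 882, 868 and 791 normalized counts in the control, 2934, 2317 and 2672 with shMPZL3 #1 and 2769, 2186 and 2392 with shMPZL3 #2. The lowest knockdown library was far above the highest control library. The fold was 3.00 (log2 fold change 1.59, SE 0.117, edgeR adjusted p = 2.34e-05), 3.12 with shMPZL3 #1 and 2.89 with shMPZL3 #2, and it was called under all 17 alternatives for each of these comparisons. ECI2, an enoyl-CoA isomerase, measured 1086, 1041 and 1027 in the control, 859.6, 792 and 719 with shMPZL3 #1 and 792, 945 and 826 with shMPZL3 #2, and fell by 0.35 (adjusted p = 0.029). It was not called with shMPZL3 #2 alone (-0.30, adjusted p = 0.0691). Of 13 peroxisomal beta-oxidation genes tested, 1 rose and 0 fell (7.69%, against 15.8% of all genes tested, unadjusted p under 0.05 for 1).

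Of 14 partners and coactivators of PPARA tested, 2 rose and 2 fell (28.6%, against 15.8% of all genes tested). PPARGC1A, the coactivator that drives mitochondrial gene expression in oxidative tissues, measured 484, 377 and 393 normalized counts in the control, 283, 191 and 179.7 with shMPZL3 #1 and 260.2, 258 and 194 with shMPZL3 #2. It lay below the control in 6 of 6 libraries and fell by 0.88 on the log2 scale (SE 0.166, edgeR adjusted p = 0.00456). MED1, a Mediator subunit that contacts nuclear receptors, held 1532, 1362 and 1529 normalized counts in the control, 920.0, 1161 and 904 with shMPZL3 #1 and 1137, 1289 and 1202 with shMPZL3 #2, lower in 6 of 6 knockdown libraries, and fell by 0.42 (adjusted p = 0.0332). Its overlap with AC005288.1 on the opposite strand (1674 against 10830 counts) makes its value less certain. NCOA1, a receptor coactivator, rose by 0.41 (adjusted p = 0.0425), with 809.8, 846 and 782 in the control, 1204, 1262 and 1221 with shMPZL3 #1 and 901, 981 and 928 with shMPZL3 #2. The shMPZL3 #2 libraries lay between the other groups without overlap, and NCOA1 was not called with shMPZL3 #2 alone (log2 fold change 0.20, adjusted p = 0.165). PPARD, the related fatty acid receptor, measured 884, 849 and 843 in the control, 1202, 1001 and 1263 with shMPZL3 #1 and 1061, 924 and 1089.8 with shMPZL3 #2 and rose by 0.34 (adjusted p = 0.0478). PPARD (0.26, adjusted p = 0.13) and MED1 (-0.28, adjusted p = 0.0962) were not called with shMPZL3 #2 alone either, while all 3 genes were called with shMPZL3 #1 alone. PPARG and RXRG were too low to test, with at most 3 and 2 counts in a library.

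Of 7 other PPARA target genes tested, VNN1 left out, 3 rose and 0 fell (unadjusted p under 0.05 for 5), against 9.36% of all genes tested called higher, with a median log2 fold change of 0.73. TXNIP, an arrestin-like protein that restrains glucose uptake, measured 1221, 1603 and 1731 normalized counts in the control, 5306, 6459 and 6730.1 with shMPZL3 #1 and 4037, 5993 and 4943 with shMPZL3 #2, and rose 3.67-fold (log2 fold change 1.88, SE 0.173, edgeR adjusted p = 8.77e-05). Each knockdown library held more than the highest control library. The others called, chosen after their values were seen, were PLIN2, a lipid droplet coat protein (log2 fold change 0.77, adjusted p = 0.00846), and ACOT2, a mitochondrial acyl-CoA thioesterase with a near-identical paralog in ACOT1 (0.73, adjusted p = 0.00603). VNN1, a pantetheinase, had 2 counts over the 3 control libraries and 61 over the 6 knockdown libraries, a ratio of 12.0 after scaling to library size with an exact 95% interval of 3.18 to 101 that covers counting error only. It is given as a description, with no test. The leukocyte marker CD14 was also called higher (log2 fold change 1.60, adjusted p = 0.0237), with 4 to 11.3 normalized counts in the control and 18.3 to 32.2 in the knockdown libraries, while the sum of the 4 leukocyte markers was 41.2 to 51.9 in the control, 43 to 62.6 with shMPZL3 #1 and 57.7 to 95.4 with shMPZL3 #2, and the part of these markers in the result was not tested. Among classical targets of PPARA in liver, CREB3L3, CYP4A11 and FABP1 had 0 counts in every library and FGF21 at most 4.

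Of 4 ketone body genes tested, 0 passed edgeR in the grouped comparison, against 15.8% of all genes tested (unadjusted p under 0.05 for 1).

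**Figure D4:**
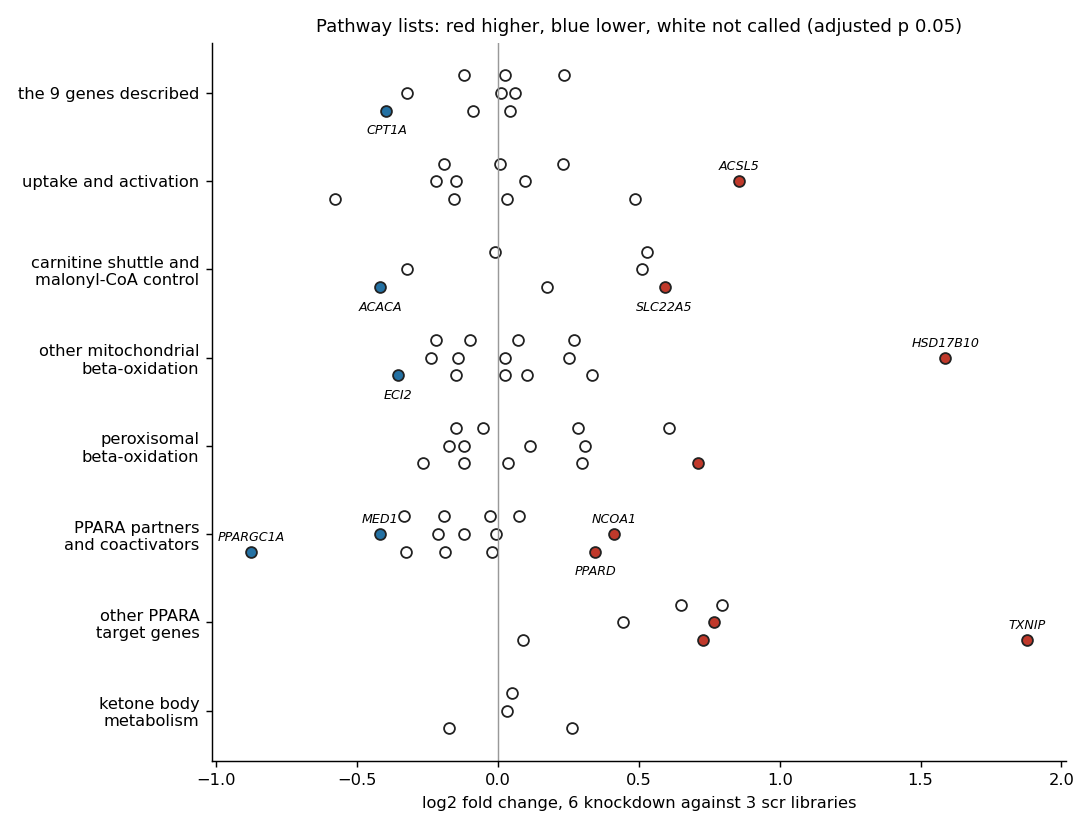
Grouped log2 fold change (horizontal axis) of the 9 genes and of the tested genes of 7 pathway lists, a dot per gene and a row per list, red for called higher, blue for called lower and white for not called, with VNN1 left out because its control counts sum to 2. CPT1A is the blue dot of the top row at -0.40, and HSD17B10 at 1.59 and TXNIP at 1.88 stand apart from their lists.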

How the data were processed

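OVCAR4 libraries were poly-A selected and non-directional. The authors deposited raw read counts per gene, not normalized and not pooled, and a gene length in bases, and the submitters' processing notes name HISAT2 2.0.5, featureCounts 1.5.0-p3 and hg38. All 58735 genes matched the GENCODE annotation used here in identifier, position and name. Groups were taken from the sample labels. The deposited counts were analysed with edgeR 4.0.16 in R 4.3.3 (filterByExpr, TMM factors of 0.983 to 1.03, quasi-likelihood tests, two-sided, Benjamini-Hochberg adjustment over 16928 genes), which kept over 99.8% of counts, and DESeq2 1.42.0 was an alternative. The grouped design fitted condition only, as the study grouped its shRNAs, and a 3-group fit gave each shRNA and their difference. Standard errors are the log2 fold change over the square root of the F statistic, and intervals use 95% limits of its t distribution. Log2 CPM used a prior count of 2. The fits were tested on simulated counts.

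Named genes were MPZL3, the 9 members, genes overlapping them, at most 2 rises and 2 falls per pathway list among genes called in the grouped comparison (or else with 1 shRNA), and the 5 genes most like the member with the smallest adjusted p. The members and lists were chosen with earlier results of these data known. The lists were written from general knowledge: uptake and activation, carnitine shuttle and malonyl-CoA, other mitochondrial enzymes, peroxisomal enzymes, PPARA partners, other PPARA targets and ketone body genes, with marker lists for epithelium, adipocytes, leukocytes and endothelium. Median log2 fold changes of all genes lay between 0.00 and 0.02, which TMM brings near 0 by construction. No replicate pair was alike within counting noise (chi-square per gene 3.16 to 23.7). Sequences are from RefSeq. Alternatives were DESeq2, normalization by RLE or the upper quartile, a filter of at least 10 counts per library or none, a replicate block, thinning, other fits and leaving out each library. OVCA433 libraries were not analysed here. Some genes of the lists are counted but not reported here by name.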

Additional observations from a re-analysis of the deposited data

Results flagged for a closer look

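Besides MPZL3 itself, differences between the shRNAs passed the edgeR test for 2 named genes, NCOA1 and SLC22A5, and for none of the 9 members. NCOA1 had a log2 fold change of -0.39 for shMPZL3 #2 against shMPZL3 #1 (edgeR adjusted p = 0.01), with 901, 981 and 928 normalized counts against 1204, 1262 and 1221. SLC22A5 had -0.35 (adjusted p = 0.0416), with 693, 637 and 697 against 829, 818 and 931. All 3 libraries of shMPZL3 #2 lay below those of shMPZL3 #1 in both genes. The NCOA1 difference was called under 17 of 17 alternatives and the SLC22A5 difference under 8 of 17.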

How the results depend on the processing

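In the grouped comparison 1 member was called, and 2 with DESeq2 and when the 3-group fit averaged the shRNAs (CPT1A and ACAA2). Leaving out 1 library gave 0 to 1, with 0 without scr replicate 1, 2 or 3. With shMPZL3 #1 the count of 2 became 1 with upper-quartile scaling, without a filter, at a minimum of 10 counts and on thinning, and 1 to 2 without single libraries, and CPT1A was called under all 17 alternatives. Without scr replicate 1 the 2 were CPT1A and PPARA. With shMPZL3 #2 the count of 0 became 1 (CPT1A) with DESeq2, the replicate block and the fit of 2 groups only, and 0 to 1 without single libraries, with 1 whenever 1 of the shMPZL3 #1 libraries was left out. Between the shRNAs it was 0 under all 17 alternatives. Calls in the pathway lists numbered 4 to 15 without single libraries for the grouped comparison, 19 to 27 for shMPZL3 #1, 5 to 15 for shMPZL3 #2 and 7 to 14 between the shRNAs, where the fit of 2 groups gave 9. Leaving out VNN1, chosen after seeing the data, gave 13, 24, 13 and 14. The cause was not tested.

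Values near 0 changed sign without being called. CPT2 with shMPZL3 #1 went from -0.018 to 0.013 (upper quartile) and 0.020 (minimum of 10), and HADHA with shMPZL3 #2 to -0.00258 (RLE), -0.00255 (DESeq2) and -4.63e-05 (replicate block). ACAA2 between the shRNAs reached -0.000568 on thinning. Without single libraries the grouped log2 fold change ran from -0.029 to 0.11 for CPT2, -0.012 to 0.11 for ACADVL and -0.018 to 0.036 for HADHB. With shMPZL3 #1 it ran from -0.11 to 0.069 for CPT2, -0.13 to 0.032 for ACADVL and -0.015 to 0.035 for HADHB, and with shMPZL3 #2 from -0.018 to 0.024 for HADHA and -0.029 to 0.036 for HADHB. Between the shRNAs it ran from -0.12 to 0.040 for ACADM, -0.042 to 0.0034 for HADHB and -0.016 to 0.12 for ACAA2.

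The main fits did not pair the libraries by replicate number. Same-number pairs correlated from -0.00143 to 0.218, with 3 of 9 over 0.1, and different-number pairs from -0.147 to 0.0671. A library correlated best with its own number in 13 of 18 cases. Same-number libraries thus tended to be more alike, which the fits without a block leave out. The replicate block gave 1434 higher and 990 lower genes in the grouped comparison against 1584 and 1083, 3251 and 3104 with shMPZL3 #1 against 2838 and 2585, and 2083 and 1597 with shMPZL3 #2 against 1585 and 982, and between the shRNAs 2015 and 1808 against 1279 and 1280. It lost the grouped calls of NCOA1 (adjusted p = 0.0644) and PPARD (0.0511) and added ECI2 (0.0359) and MED1 (0.0481) with shMPZL3 #2. Over all genes the grouped calls were 453 higher and 172 lower without scr replicate 1, 686 and 276 without scr replicate 2 and 815 and 423 without scr replicate 3, and 2479 and 2198 when the 3-group fit averaged the shRNAs. With shMPZL3 #2 they were 910 and 488 without scr replicate 1, 1078 and 501 without scr replicate 2 and 997 and 359 without shMPZL3 #2 replicate 3. Between the shRNAs they were 779 and 801 without shMPZL3 #1 replicate 3, 743 and 911 without shMPZL3 #2 replicate 1 and 656 and 803 without shMPZL3 #2 replicate 3. Depth of 15040102 to 27835841 counts limits genes with few counts such as VNN1.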
